A study of Rattus norvegicus with 12 samples.

Results

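Collagens are the main structural proteins of the extracellular matrix, and the genes of 29 collagen chains and of 11 proteins that fold, modify, cleave and crosslink those chains were followed in rat hearts after ischaemia and reperfusion. The 40 genes were chosen by name alone: a symbol made of Col, a number, the letter a and a number, a symbol starting with P4ha, Plod or Pcolce, Lox with or without a numbered suffix, or the symbols Serpinh1, P4hb and Bmp1. They were among 10411 genes that the array read with a probe set of 1 symbol, and fell into 10 fibrillar collagens, 6 basement membrane collagens, 13 other collagens and 11 collagen-processing genes. The array held 55 probe sets for them, 15 genes had more than 1, and the probe set with the highest mean signal stands for each gene. Of the 40 genes, 33 were bright enough to be tested; Col11a1, Col11a2, Col4a4, Col10a1, Col19a1, Col7a1 and Col9a1 lay below the 40th percentile of the signal on all 12 arrays and were not.

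The 4 groups held 3 rats each, with 1 array per rat: hearts taken 2 d or 7 d after the left anterior descending artery of the heart had been closed for 30 min and reopened (ischaemia and reperfusion, 2 d IR and 7 d IR), and hearts of sham-operated rats of the same days (2 d sham and 7 d sham). Groups were taken from each sample's title and description, since the written design lists the 7 d sham group in both sham places. The label of 7 d IR replicate 44 names the ventricle, strain, sex and age are not stated in the labels read here, and no genotype or drug is named for any group. Each heart sample mixes all its cells, so that more cells of a type and more RNA per cell cannot be told apart in any result. Cardiomyocyte markers (14 of 14 measured genes tested) had summed signals of 507300 or more on every array, and markers of the atria (Myl7, Myl4 and others, 5 of 6 tested) were detected as well.

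A collagen molecule is a triple helix of several chains in which glycine recurs at a fixed spacing and proline is frequent. In the endoplasmic reticulum, prolyl 4-hydroxylases stabilise the helix, lysyl hydroxylases prepare crosslink sites and the chaperone encoded by Serpinh1 escorts the folded procollagen. Outside the cell, propeptides are cut off, and lysyl oxidases crosslink the molecules in fibrils. In the heart, fibroblasts and the myofibroblasts derived from them make most fibrillar collagen, which forms the scar after an infarct, whereas type IV collagen forms the sheet around each cardiomyocyte and under the endothelium.

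Signals are given as deposited, in MAS5 units on a linear scale, scaled so that every array has about the same trimmed mean. Log2 changes are differences of group means of log2(signal + 195), with the standard error (SE) of limma's moderated fit over all 12 arrays, and a change passed the test when its adjusted p (limma, Benjamini-Hochberg over 10527 probe sets) was under 0.05. Array medians ran from 638.6 to 721.5. A gene's level cannot be set against another gene's, because probe sets differ in brightness. A single array stood apart for these genes: in 7 d sham replicate 82 the mean log2 signal of the fibrillar collagens, relative to the 2 d sham mean, was -0.02, against 0.71 and 0.74 in replicates 80 and 81. The called 7 d changes of these genes, in the probe set that stands for each, are therefore also given without it.

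At 7 d, 23 of the 33 tested genes were higher in IR than in sham hearts and none was lower, whereas 6.22% of all probe sets tested were called higher and 5.84% lower. Higher were 6 of 8 fibrillar collagens, 3 of 5 basement membrane collagens, 5 of 9 other collagens and 9 of 11 collagen-processing genes, with median log2 changes of 1.08, 0.49, 0.93 and 0.70, against 0.007 over all probe sets. In 25 of the 33 genes all 3 IR arrays lay above all 3 sham arrays, which held for 16.6% of all probe sets. Col5a3 passed the filter on dim signals mainly through its 7 d IR arrays and so had to differ; without it the counts are 22 of 32 and 5 of 7 fibrillar collagens, and the fibrillar median is 0.90. Without 7 d sham replicate 82, 7 genes passed the test (Col5a2, Col5a3, Col6a1, Lox, Loxl1, Pcolce and Serpinh1), and in that fit 1.66% of all probe sets did, against 12.1% with all arrays. The class medians were then 0.661 for fibrillar, 0.476 for basement membrane and 0.869 for other collagens and 0.675 for collagen-processing genes. The same 7 genes passed in all 12 fits that each leave out 1 array. Col5a3 is among these 7 and in the fibrillar median of 0.661, under a filter set on all 12 arrays. As it passed that filter mainly through its 7 d IR arrays, its passing adds no support. Without 7 d IR replicate 44, 12 genes passed, and 13 without replicate 47, where 4.5% and 4.77% of all probe sets passed. Differences between the gene classes were not tested.

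**Figure D1:**
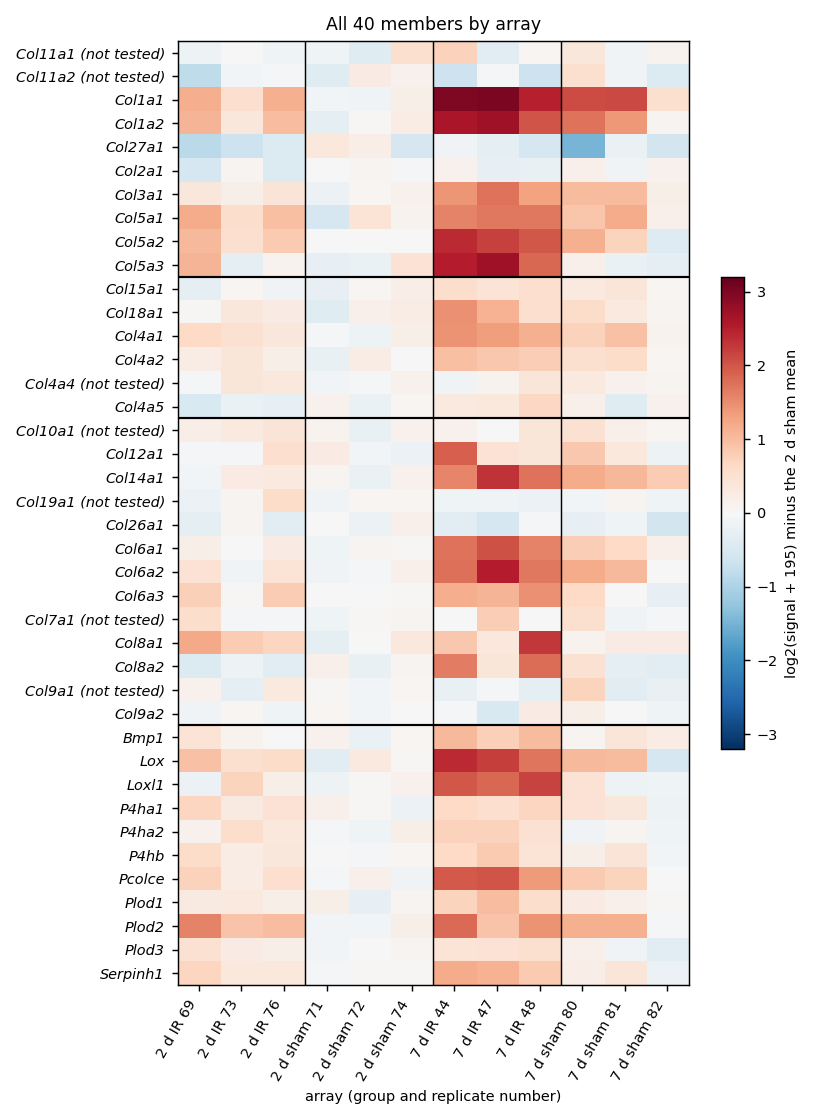
Log2(signal + 195) of all 40 genes on each of the 12 arrays, as the difference from the gene's mean in 2 d sham hearts (red above, blue below); rows are genes in the order fibrillar, basement membrane, other collagens and collagen-processing genes, and columns are arrays. In 25 of the 33 tested rows the 3 columns of 7 d IR hearts all exceed those of 7 d sham hearts, and the column of 7 d sham replicate 82 is nearer to the 2 d sham columns for the fibrillar collagens (mean -0.02) than those of replicates 80 and 81.

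Type I collagen, the tensile fibre of scars and tendons, is made of the Col1a1 and Col1a2 chains. Col1a1 had signals of 54499.5, 54916 and 38432 in 7 d IR hearts, against 29243, 29766 and 9642 in 7 d sham hearts. At 2 d its signals were 15306, 9778 and 14921 in 2 d IR hearts, against 6326, 6152 and 7658 in 2 d sham hearts. All IR arrays lay above the sham arrays on both days, and 7 d sham replicate 82 lay far below the other 7 d sham arrays. The log2 change of Col1a1 was 1.25 (SE 0.33, adjusted p = 0.0248) at 7 d, or 2.38-fold, and 0.95 (SE 0.33, adjusted p = 0.114) at 2 d. Signals of Col1a1 in 7 d IR replicate 44 were close to the top of that array, whose highest signal was 57553.

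Col1a2 had signals of 47537, 50944 and 31512 in 7 d IR hearts, against 25950.2, 20450.5 and 8139.6 in 7 d sham hearts. Its 2 d signals were 16376, 9826 and 15298 in 2 d IR hearts, against 6259.6, 7920.2 and 9051 in 2 d sham hearts. The groups did not overlap on either day. Its log2 change was 1.37 (SE 0.33, adjusted p = 0.0188) at 7 d and 0.80 (SE 0.33, adjusted p = 0.176) at 2 d. Col3a1 encodes the only chain of type III collagen, the finer fibre of vessel walls and young scars. Its signals were 50052, 62738 and 45912 in 7 d IR hearts, against 37976, 37748 and 21435 in 7 d sham hearts, and 24105, 21414 and 24837 in 2 d IR hearts, against 16292, 19453 and 20576 in 2 d sham hearts. The IR arrays again lay above the sham arrays on both days. The log2 change of Col3a1 was 0.74 (SE 0.19, adjusted p = 0.0222) at 7 d and 0.32 (SE 0.19, adjusted p = 0.342) at 2 d. With 7 d sham replicate 82 left out, the 7 d changes of Col1a1, Col1a2 and Col3a1 were 0.72 (adjusted p = 0.0637), 0.88 (adjusted p = 0.0637) and 0.47 (adjusted p = 0.0835), and none passed; none passed without 7 d IR replicate 44 or without replicate 47 either.

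Type V collagen sits inside type I fibrils and sets their diameter, and Col5a1, Col5a2 and Col5a3 were all higher at 7 d. Col5a3 had signals of 1554, 1818 and 909.9 in 7 d IR hearts, against 147, 67.8 and 53.9 in 7 d sham hearts. At 2 d they were 461, 53.6 and 135 in 2 d IR hearts, against 62.3, 68.2 and 230.5 in 2 d sham hearts. The 7 d IR arrays stood far above the rest, while of the other arrays only 2 d IR replicate 69 was above its array's 40th percentile. With the 40th percentile of each 7 d sham array in place of its own signal, Col5a3 was at least 2.31-fold higher in 7 d IR hearts. The fitted 7 d log2 change was 2.48 (SE 0.36, adjusted p = 0.00323), a value set against signals below that percentile, and the fitted 2 d change was 0.30 (SE 0.36, adjusted p = 0.688).

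Col5a2 had signals of 14746, 12687 and 11167 in 7 d IR hearts, against 6114, 4481 and 1953 in 7 d sham hearts. Its 2 d signals were 5654, 3849 and 4935 in 2 d IR hearts, against 2697, 2650.1 and 2624 in 2 d sham hearts. The groups did not overlap on either day, and 2 d sham hearts were within a narrow range. The log2 change was 1.70 (SE 0.28, adjusted p = 0.00548) at 7 d and 0.80 (SE 0.28, adjusted p = 0.119) at 2 d. Col5a1, the chain found in most type V molecules, had signals of 4967, 5378 and 5363 in 7 d IR hearts, against 3003, 3784 and 1734 in 7 d sham hearts. Its 2 d signals were 3744, 2358 and 3200.5 in 2 d IR hearts, against 997, 2153 and 1662 in 2 d sham hearts. Again no arrays overlapped, and the change was of like size on both days: 0.90 (SE 0.26, adjusted p = 0.0375) at 7 d and 0.91 (SE 0.26, adjusted p = 0.0707) at 2 d. Leaving out 7 d sham replicate 82 gave 7 d changes of 2.39 (adjusted p = 0.0157) for Col5a3, 1.26 (adjusted p = 0.00646) for Col5a2 and 0.60 (adjusted p = 0.173) for Col5a1. Col5a1 also missed the threshold without 7 d IR replicate 44, 47 or 48, or 7 d sham replicate 80.

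The cartilage collagens of the fibrillar class showed no called change. Col2a1, the main cartilage fibril, and Col27a1 were dim, with 7 d log2 changes of -0.18 and 0.43, while Col11a1 and Col11a2 reached at most 241.4 and 330.6 on any array. Of the cartilage and bone markers measured, 5 of 7 (Bglap, Chad, Cnmd, Comp and Ibsp) lay below the 40th percentile on all arrays. The other untested collagens reached at most 219.1 for Col4a4, 469.2 for Col10a1, 180.7 for Col19a1, 233.9 for Col7a1 and 250.6 for Col9a1 on any array.

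**Figure D2:**
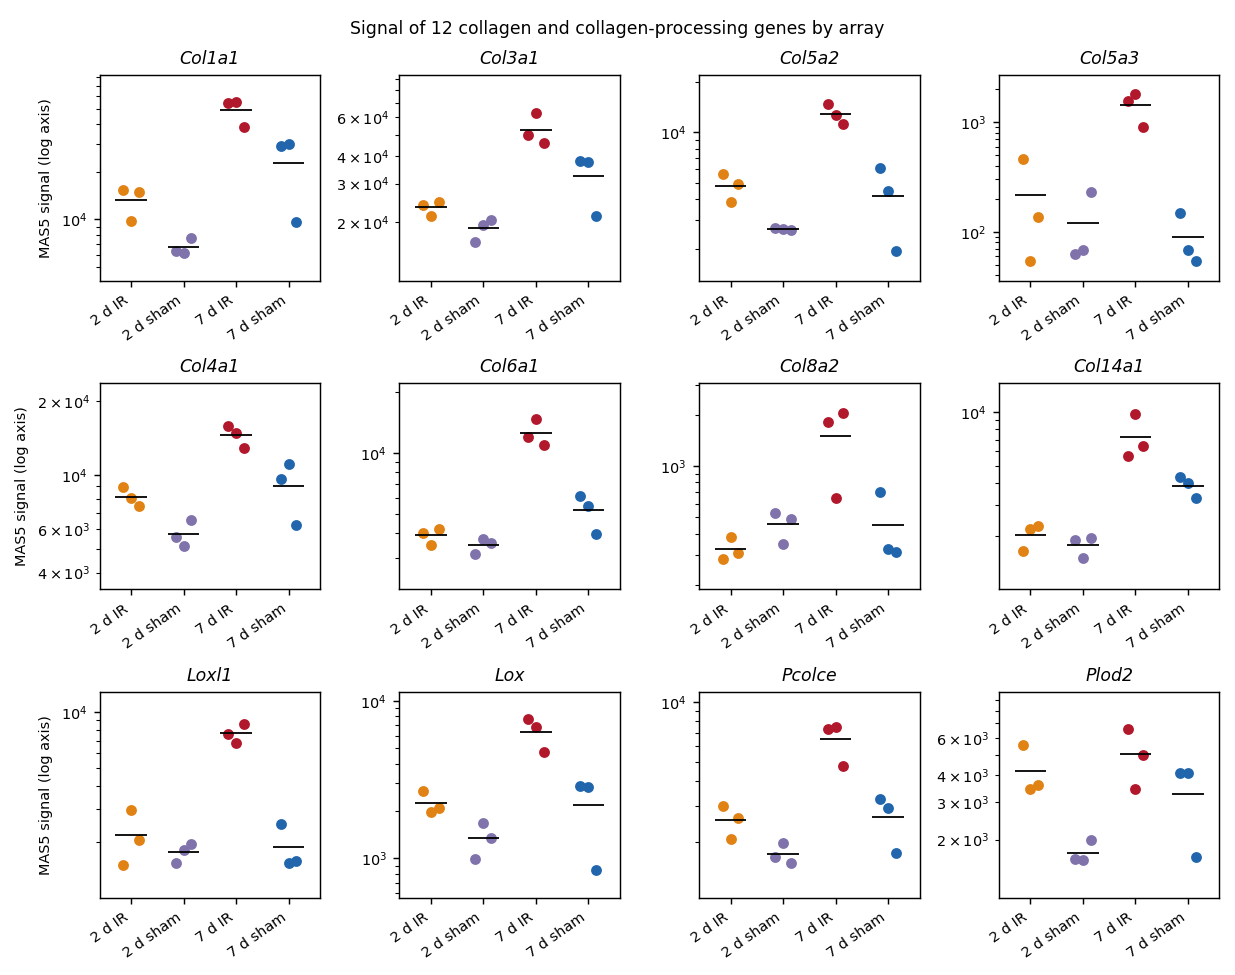
Deposited signal of selected collagen and collagen-processing genes on each array, on a log axis; each panel is 1 of 12 genes, points are arrays, and lines are group means. The 7 d IR points lie above all 7 d sham points in every panel but those of Col8a2 and Plod2, and 7 d sham replicate 82 is the lowest 7 d sham point for Col1a1 (9642).

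Among the basement membrane collagens, 3 of 5 tested genes were higher at 7 d. Col4a1 and Col4a2 encode the chains that form the type IV network of most basement membranes. Col4a1 had signals of 15843, 14859 and 12852 in 7 d IR hearts, against 9608, 11131 and 6228 in 7 d sham hearts, and 8975, 8043 and 7474 in 2 d IR hearts, against 5568, 5130.5 and 6571 in 2 d sham hearts. Col4a2 had signals of 9937, 9235 and 8714 in 7 d IR hearts, against 7159, 7600.0 and 5189 in 7 d sham hearts, and 5904, 6506 and 5689.6 in 2 d IR hearts, against 4199.7, 5859 and 4984 in 2 d sham hearts. Both genes were higher on all 7 d IR arrays than on any 7 d sham array, and at 2 d only Col4a1 was without overlap. The 7 d log2 changes were 0.71 (SE 0.17, adjusted p = 0.0198) for Col4a1 and 0.49 (SE 0.15, adjusted p = 0.0469) for Col4a2, and the 2 d changes were 0.49 (SE 0.17, adjusted p = 0.125) and 0.27 (SE 0.15, adjusted p = 0.322).

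Col18a1 encodes the collagen whose C-terminal fragment is endostatin, an inhibitor of vessel growth. Its signals were 4472, 3482 and 2249 in 7 d IR hearts, against 2321, 1887 and 1606 in 7 d sham hearts, and 1533, 1978 and 1825 in 2 d IR hearts, against 1099, 1685 and 1778 in 2 d sham hearts. Its groups overlapped on both days, since 7 d IR replicate 48 lay below 7 d sham replicate 80, and the 7 d log2 change was 0.72 (SE 0.22, adjusted p = 0.0471). Col4a5, a type IV chain best known from the kidney filter, had signals of 1316, 1359 and 1746 in 7 d IR hearts, against 1166, 730.4 and 1151 in 7 d sham hearts, and 675, 855 and 825 in 2 d IR hearts, against 1152, 864 and 1081 in 2 d sham hearts. It was the only tested gene whose 2 d IR arrays all lay below the 2 d sham arrays, with a log2 change of -0.32 (adjusted p = 0.298), while at 7 d its change was 0.48 (SE 0.17, adjusted p = 0.0851), or 0.56 (adjusted p = 0.119) without 7 d sham replicate 82. Col15a1, a relative of Col18a1 in vessel and muscle basement membranes, had signals of 6563, 6026 and 6519 in 7 d IR hearts, against 5525, 5870.4 and 4612 in 7 d sham hearts, and 3598, 4651 and 4063 in 2 d IR hearts, against 3651, 4599 and 5123 in 2 d sham hearts. Neither change passed the test (0.25 at 7 d and -0.11 at 2 d).

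Without 7 d sham replicate 82 the 7 d changes of Col4a1, Col4a2 and Col18a1 were 0.48 (adjusted p = 0.0838), 0.32 (adjusted p = 0.207) and 0.60 (adjusted p = 0.18). Col4a2 and Col18a1 passed in 4 of 12 such fits each, and Col4a1 in 9. Partners of type IV collagen in the basement membrane were also measured, and 2 of 11 tested genes were higher at 7 d: Nid1 by 0.71 (SE 0.17, adjusted p = 0.0173), the linker nidogen, and Lama4, a laminin chain of vessels, by 0.49 (adjusted p = 0.033). Another probe set of Nid1 gave 0.10 (adjusted p = 0.808). Over all probe sets, 6.22% were called higher at 7 d. At 2 d Lama2, the laminin chain of muscle, was lower by 0.63 on the log2 scale (adjusted p = 0.0318), where 0.589% of all probe sets were called lower. Calls of any direction at 2 d fell to 0.019% of all probe sets without 2 d IR replicate 69, or without 2 d sham replicate 71 or 72. The change of Agrn, agrin, was 0.51 at 7 d (adjusted p = 0.0516).

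Promoters are shown for the type IV pair, whose genes lie head to head, and for 3 genes with large changes at 7 d: Col1a2 and Col5a3 of the fibrillar class and Loxl1 of the lysyl oxidases. Each runs from 250 bases before to 50 after the RefSeq start site on assembly GRCr8, at chr16:84885347-84885646 (plus strand), chr16:84885471-84885770 (minus), chr4:33518307-33518606 (plus), chr8:27625899-27626198 (minus) and chr8:67612175-67612474 (minus). They are written 5′ to 3′ on the strand of the gene. Capitals mark 3 motifs on either strand: the CCAAT box (reverse ATTGG), the letters TATAAA of a TATA box, and the GC box GGGCGG (reverse CCGCCC).
Col4a1: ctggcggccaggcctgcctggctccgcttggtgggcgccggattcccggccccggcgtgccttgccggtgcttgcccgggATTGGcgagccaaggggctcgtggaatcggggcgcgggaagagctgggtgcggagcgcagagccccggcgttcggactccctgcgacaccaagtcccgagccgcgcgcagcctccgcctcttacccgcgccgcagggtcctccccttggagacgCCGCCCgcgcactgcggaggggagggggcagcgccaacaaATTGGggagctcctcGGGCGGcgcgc
Col4a2: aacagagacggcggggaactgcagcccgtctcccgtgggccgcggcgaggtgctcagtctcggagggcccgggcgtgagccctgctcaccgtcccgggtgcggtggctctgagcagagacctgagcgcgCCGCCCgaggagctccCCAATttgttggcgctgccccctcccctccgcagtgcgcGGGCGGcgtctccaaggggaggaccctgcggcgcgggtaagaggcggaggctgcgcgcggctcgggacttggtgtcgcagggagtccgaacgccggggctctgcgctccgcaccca
Col1a2: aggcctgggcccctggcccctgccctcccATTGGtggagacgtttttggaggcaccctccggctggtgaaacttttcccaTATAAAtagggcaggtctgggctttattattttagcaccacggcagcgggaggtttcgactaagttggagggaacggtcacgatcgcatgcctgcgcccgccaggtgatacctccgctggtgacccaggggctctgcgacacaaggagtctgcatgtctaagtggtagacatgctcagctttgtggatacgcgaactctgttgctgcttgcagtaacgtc
Col5a3: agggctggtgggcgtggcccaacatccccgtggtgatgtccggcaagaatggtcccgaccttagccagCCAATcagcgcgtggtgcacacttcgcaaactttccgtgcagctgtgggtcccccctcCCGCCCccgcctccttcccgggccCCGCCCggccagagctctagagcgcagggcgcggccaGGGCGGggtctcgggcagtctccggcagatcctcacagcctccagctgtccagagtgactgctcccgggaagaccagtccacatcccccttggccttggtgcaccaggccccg
Loxl1: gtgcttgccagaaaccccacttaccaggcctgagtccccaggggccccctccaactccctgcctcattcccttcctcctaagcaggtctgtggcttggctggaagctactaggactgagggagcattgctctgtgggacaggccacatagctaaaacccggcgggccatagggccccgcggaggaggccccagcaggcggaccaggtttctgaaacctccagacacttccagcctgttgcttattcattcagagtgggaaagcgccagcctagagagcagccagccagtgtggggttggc
The start sites of Col4a1 and Col4a2 are 77 bases apart on opposite strands, and 176 bases of the windows are shared. The CCAAT box was found in 4 of these 5 windows and the TATA letters in that of Col1a2, and none of the motifs in that of Loxl1. Counted from the start site used, the TATA letters of Col1a2 are at -170. The CCAAT match of Col4a1 at 24, after its start site, and that of Col4a2 at -105 are the same bases of the shared part. RefSeq promoters were found for 32 of the 40 genes. The GC box was in 62.5% of these 32 windows, against 33.1% of 33469 windows of all genes. The CCAAT box was in 21.9% against 37.5%, and the TATA letters in 6.25% against 14.2%. A Smad-binding motif, CAGAC, was in 46.9% against 50.1%, also on both strands. Col3a1 and Col5a2, Col6a1 and Col6a2, and the untested Col19a1 and Col9a1 are neighbours in the RefSeq gene order as well. A match is a description of letters only.

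Type VI collagen forms beaded filaments between fibrils and basement membranes, and its chains rose at 7 d. Col6a1 had signals of 11968, 14833 and 10901 in 7 d IR hearts, against 6111, 5475 and 3949.7 in 7 d sham hearts. Col6a2 had 9529, 15976 and 8974 in 7 d IR hearts, against 6319, 5682 and 2612 in 7 d sham hearts. Col6a3 had 5926, 5577 and 7261 in 7 d IR hearts, against 4066, 2548 and 2069 in 7 d sham hearts. No 7 d IR array overlapped a 7 d sham array for any of them. The log2 changes were 1.26 (SE 0.16, adjusted p = 0.00244) for Col6a1, 1.25 (SE 0.28, adjusted p = 0.0141) for Col6a2 and 1.10 (SE 0.23, adjusted p = 0.0102) for Col6a3. At 2 d Col6a1 had 3994, 3499 and 4212 in 2 d IR hearts, against 3157, 3717 and 3587 in 2 d sham hearts. Col6a2 had 3741, 2427 and 3669.5 in 2 d IR hearts, against 2444, 2561 and 3008 in 2 d sham hearts. Col6a3 had 4437, 2577 and 4592 in 2 d IR hearts, against 2491, 2488 and 2609 in 2 d sham hearts. The groups overlapped at 2 d for all these genes, with changes of 0.15, 0.26 and 0.54. When 7 d sham replicate 82 was left out, the 7 d changes were 1.08 (adjusted p = 0.00621), 0.87 (adjusted p = 0.0595) and 0.91 (adjusted p = 0.0545).

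Col14a1, a collagen on the surface of fibrils, had signals of 5659.7, 9691 and 6448 in 7 d IR hearts, against 4298, 3976 and 3268 in 7 d sham hearts, and 1662, 2202 and 2285 in 2 d IR hearts, against 1907, 1517 and 1968 in 2 d sham hearts. All 6 of its 7 d arrays lay above all 6 of its 2 d arrays. Its 7 d log2 change was 0.86 (SE 0.19, adjusted p = 0.0128), or 0.75 (adjusted p = 0.0657) without 7 d sham replicate 82. Col8a1 and Col8a2 encode the chains of type VIII collagen, a network of vessel walls. Col8a2 had signals of 1822, 646 and 2044 in 7 d IR hearts, against 707, 324 and 314 in 7 d sham hearts, and 284, 385 and 310.4 in 2 d IR hearts, against 533, 349 and 487 in 2 d sham hearts, so that 1 IR array lay below 1 sham array at 7 d. The change of Col8a2 was 1.33 (SE 0.32, adjusted p = 0.0177) at 7 d and -0.32 at 2 d, and 1.19 (adjusted p = 0.0828) at 7 d without replicate 82. Col8a1 had signals of 2161, 1456 and 6078 in 7 d IR hearts, against 1223, 1375 and 1385 in 7 d sham hearts, and 2848, 2096 and 1927 in 2 d IR hearts, against 855, 1099 and 1446 in 2 d sham hearts. On both days all its IR arrays lay above the sham arrays, and at 7 d replicate 48 lay far above the other IR arrays. The change was 0.91 (SE 0.34, adjusted p = 0.143) at 2 d and 0.93 (SE 0.34, adjusted p = 0.0907) at 7 d. Neither passed the test, and the 7 d change without replicate 82 was 0.96 (adjusted p = 0.186). Col12a1, a relative of Col14a1, Col26a1 and Col9a2 had uncalled 7 d changes of 0.58, 0.02 and -0.11.

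**Figure D3:**
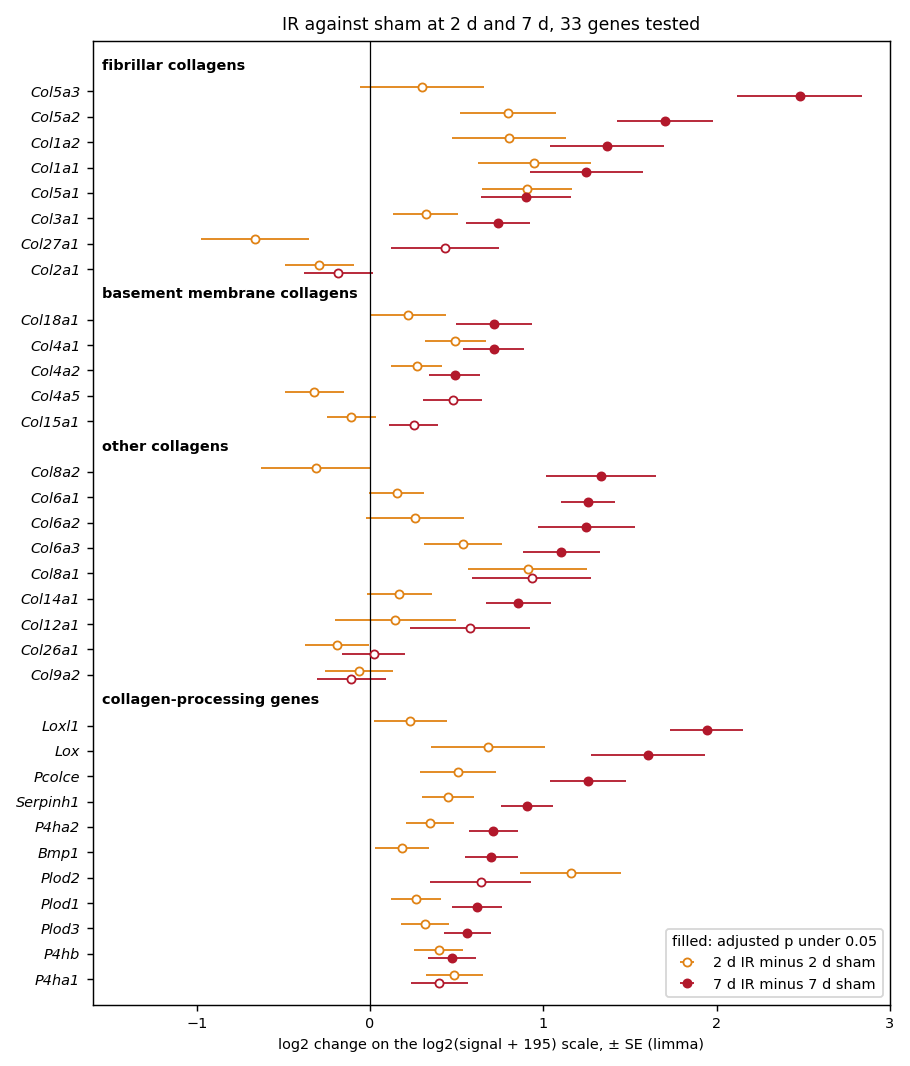
Log2 change of IR against sham hearts at 2 d (orange) and 7 d (red) for each tested gene, with limma's SE as bars, grouped by class; filled points passed the test. Changes at 7 d run from -0.18 (Col2a1) to 2.48 (Col5a3, whose 7 d sham arrays were all below the 40th percentile) and at 2 d from -0.66 (Col27a1) to 1.16 (Plod2).

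Among the crosslinking enzymes, Lox and Loxl1 oxidise lysines of collagen and elastin so that neighbouring molecules join. Loxl1 had signals of 7567, 6847 and 8556 in 7 d IR hearts, against 2511, 1548 and 1589 in 7 d sham hearts. Its 2 d signals were 1513, 2993 and 2044 in 2 d IR hearts, against 1542, 1811 and 1963 in 2 d sham hearts. The 7 d IR arrays lay far above all other arrays, and at 2 d the groups overlapped. Its log2 change of 1.94 (SE 0.21, adjusted p = 0.00092) at 7 d, or 3.85-fold, compares with 0.23 (SE 0.21, adjusted p = 0.572) at 2 d. Lox had signals of 7659.7, 6816 and 4715 in 7 d IR hearts, against 2875, 2823 and 844 in 7 d sham hearts. At 2 d they were 2677, 1964 and 2082 in 2 d IR hearts, against 989, 1683 and 1349 in 2 d sham hearts. IR arrays lay above sham arrays on both days, and the changes were 1.60 (SE 0.33, adjusted p = 0.0107) at 7 d and 0.68 (SE 0.33, adjusted p = 0.252) at 2 d. Both passed when 7 d sham replicate 82 was left out, at 1.85 (adjusted p = 0.00556) for Loxl1 and 1.09 (adjusted p = 0.0282) for Lox.

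Bmp1 cuts off the C-propeptides of fibrillar procollagens, and Pcolce binds the propeptide and enhances that cut. Pcolce had signals of 7342, 7504 and 4756 in 7 d IR hearts, against 3249, 2940.3 and 1747 in 7 d sham hearts. Its 2 d signals were 3029.6, 2064 and 2618 in 2 d IR hearts, against 1674, 1965 and 1571 in 2 d sham hearts. Bmp1 had 1848, 1499 and 1812 in 7 d IR hearts, against 869.8, 1104 and 976 in 7 d sham hearts, and 1163, 876 and 806 in 2 d IR hearts, against 905, 663 and 855 in 2 d sham hearts. The 7 d groups did not overlap for either gene, and at 2 d only those of Pcolce did not. The 7 d log2 changes were 1.26 (SE 0.22, adjusted p = 0.00674) for Pcolce and 0.70 (SE 0.15, adjusted p = 0.0131) for Bmp1, and without replicate 82 they were 1.01 (adjusted p = 0.0282) and 0.70 (adjusted p = 0.056).

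Serpinh1, the collagen chaperone known as the heat shock protein of procollagen, had signals of 20752, 19778 and 16255 in 7 d IR hearts, against 10481, 11904 and 7894 in 7 d sham hearts. Its 2 d signals were 14558, 11423 and 11507 in 2 d IR hearts, against 8603, 9221 and 9276 in 2 d sham hearts. IR and sham arrays were apart on both days. Its log2 change was 0.91 (SE 0.15, adjusted p = 0.00548) at 7 d and 0.45 (SE 0.15, adjusted p = 0.105) at 2 d, and 0.74 (adjusted p = 0.0243) at 7 d without replicate 82.

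Prolyl 4-hydroxylase consists of catalytic chains from P4ha1 or P4ha2 and the P4hb chain, which is also a general protein disulphide isomerase. P4ha2 had signals of 2708, 2702 and 2251 in 7 d IR hearts, against 1413, 1638 and 1393 in 7 d sham hearts, and 1719, 2360.5 and 1984 in 2 d IR hearts, against 1501, 1369 and 1767 in 2 d sham hearts. P4hb had 18277, 21188 and 16001 in 7 d IR hearts, against 13227, 15663 and 11015 in 7 d sham hearts, and 17678, 13811 and 15009 in 2 d IR hearts, against 11664, 11199 and 12174 in 2 d sham hearts. P4ha1 had 2556, 2396 and 2663 in 7 d IR hearts, against 2251, 2088 and 1398 in 7 d sham hearts, and 2680.4, 1971 and 2257 in 2 d IR hearts, against 1783, 1618 and 1357 in 2 d sham hearts. The 7 d groups were apart for all of them. The log2 change at 7 d was 0.71 (SE 0.14, adjusted p = 0.00946) for P4ha2, 0.47 (SE 0.14, adjusted p = 0.041) for P4hb and 0.40 (SE 0.17, adjusted p = 0.132) for P4ha1, which did not pass.

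Lysyl hydroxylases gave the closest approach to a call at 2 d. Plod2 hydroxylates the ends of fibrillar chains and so prepares stable crosslinks. It had signals of 5553, 3461 and 3603 in 2 d IR hearts, against 1630.3, 1605 and 1988 in 2 d sham hearts, and 6575, 3460.4 and 4988 in 7 d IR hearts, against 4080.5, 4082 and 1668 in 7 d sham hearts. At 2 d the groups were far apart, and at 7 d replicate 47 of the IR hearts lay below replicates 80 and 81 of the sham hearts. The change of Plod2 was 1.16 (SE 0.29, adjusted p = 0.0503) at 2 d and 0.64 (SE 0.29, adjusted p = 0.169) at 7 d, neither of which passed. Plod1 acts on the helical part of the chains, and Plod3 also adds sugars to hydroxylysine. Plod1 had 2727, 3363 and 2457 in 7 d IR hearts, against 1929.7, 1790.1 and 1622 in 7 d sham hearts, and 1999, 2019.5 and 1828 in 2 d IR hearts, against 1829.9, 1295 and 1688 in 2 d sham hearts. Plod3 had 2565, 2591 and 2690.2 in 7 d IR hearts, against 2082, 1682 and 1418 in 7 d sham hearts, and 2677, 2270.0 and 2118 in 2 d IR hearts, against 1734, 1827 and 1979.7 in 2 d sham hearts. Their 7 d changes were 0.62 (SE 0.14, adjusted p = 0.017) and 0.56 (SE 0.14, adjusted p = 0.0196). Without 7 d sham replicate 82 the 7 d changes of P4ha2, P4hb, Plod1 and Plod3 were 0.68 (adjusted p = 0.0503), 0.35 (adjusted p = 0.183), 0.56 (adjusted p = 0.0803) and 0.44 (adjusted p = 0.0987), and those of P4ha1 and Plod2 were 0.21 (adjusted p = 0.471) and 0.24 (adjusted p = 0.611).

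At 2 d no member passed the test in either direction, where 1.88% of all probe sets were called higher and 0.589% lower (limma). At an unadjusted p under 0.05, 14 of the 33 genes passed, against 21.5% of all probe sets. In 14 genes all IR arrays lay above all sham arrays (13.9% of all probe sets) and in 1, Col4a5, all lay below (12.5%). The median log2 change was 0.30 over the 33 genes, 0.56 over fibrillar and 0.40 over collagen-processing genes, with 0.003 over all probe sets. Without 7 d sham replicate 82, which is in neither group but adds to the shared estimate of the spread, 6 genes were called higher at 2 d: Col1a1, Col1a2, Col4a1, Col5a1, Col5a2 and Plod2. In that fit 4.76% of all probe sets were called. The share at 2 d fell to 0.019% without 2 d IR replicate 69, or without 2 d sham replicate 71 or 72.

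IR hearts of the 2 days were then compared. The 7 d IR hearts were above the 2 d IR hearts in 18 of 33 genes and below in none, where 2.45% of all probe sets were called higher and 0.997% lower; 17 of 32 without Col5a3. These were 5 fibrillar, 4 basement membrane, 4 other and 5 collagen-processing genes. Named by class, they were Col1a1, Col1a2, Col3a1, Col5a2 and Col5a3, then Col4a1, Col4a2, Col4a5 and Col15a1, then Col6a1, Col6a2, Col8a2 and Col14a1, and last Bmp1, Lox, Loxl1, Pcolce and Serpinh1. The log2 change was 1.88 (SE 0.33, adjusted p = 0.00467) for Col1a1, 1.71 (SE 0.19, adjusted p = 0.000374) for Col14a1, 1.63 (SE 0.16, adjusted p = 0.00022) for Col6a1 and 1.76 (SE 0.21, adjusted p = 0.000679) for Loxl1. The hydroxylases did not pass: P4ha1, P4ha2, P4hb, Plod2 and Plod3 had changes from 0.14 to 0.32, and Plod1 0.50 (adjusted p = 0.0785). Of the 18 genes, 8 passed in every fit that left out 1 array, Col5a3 again among them. Without 7 d IR replicate 44 or without 2 d IR replicate 73, 10 passed. In those fits 2.19% and 1.82% of all probe sets passed, against 3.45% with all arrays. Markers moved in this comparison too, and their part in it was not tested: 6 of 13 fibroblast markers, 2 of 7 myofibroblast, 3 of 14 macrophage and monocyte, 2 of 3 neutrophil, 1 of 2 lymphocyte and 1 of 10 smooth muscle and pericyte markers were higher in 7 d than in 2 d IR hearts. Summed fibroblast marker signals were 162000 to 192000 in 7 d IR hearts and 111700 to 121400 in 2 d IR hearts. Of the 14 cardiomyocyte markers none passed, with a median log2 change of -0.192.

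Between 7 d and 2 d sham hearts no member passed the test (limma; 0.076% of all probe sets did), and 12 of 33 members were at an unadjusted p under 0.05, against 9.42% of all probe sets. In 7 d against 2 d sham hearts, Col1a1 was at 1.58 (SE 0.33, adjusted p = 0.112), Col14a1 at 1.02 (SE 0.19, adjusted p = 0.0752), Col1a2 at 1.07 (SE 0.33, adjusted p = 0.292) and Col3a1 at 0.74 (SE 0.19, adjusted p = 0.194). For Col1a1, Col3a1, Col14a1 and Col6a1 all 7 d sham arrays lay above all 2 d sham arrays, and this held for 7.27% of all probe sets. Leaving out 7 d sham replicate 82 gave 10 called genes, all higher at 7 d: Col14a1, Col1a1, Col1a2, Col3a1, Col4a1, Col5a2, Col6a1, Col6a2, Lox and Plod2. In that fit 0.722% of all probe sets were called. Against sham hearts of the other day, or of both days, 27 and 28 of the 33 genes were higher in 7 d IR hearts, and 23.8% and 24.2% of all probe sets were called in those fits.

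The difference of the IR effects, 7 d minus 2 d, was called for no member (limma; 12 of 33 at an unadjusted p under 0.05), and 0.0095% of all probe sets were called and 7.14% were under 0.05 unadjusted. It was 1.71 (SE 0.30, adjusted p = 0.151) for Loxl1, 1.10 (SE 0.22, adjusted p = 0.224) for Col6a1 and 1.65 (SE 0.45, adjusted p = 0.413) for Col8a2. Among the genes with a nearly equal effect on both days, the difference was -0.004 (SE 0.37, adjusted p = 0.999) for Col5a1 and 0.02 (SE 0.48, adjusted p = 0.996) for Col8a1. No member was called without 7 d sham replicate 82 either (limma; 8 of 33 at an unadjusted p under 0.05), and the difference was 1.62 (adjusted p = 0.196) for Loxl1, 0.93 (adjusted p = 0.245) for Col6a1, 1.505 (adjusted p = 0.466) for Col8a2, -0.30 (adjusted p = 0.889) for Col5a1 and 0.05 (adjusted p = 0.992) for Col8a1. The median difference over the fibrillar collagens was 0.146 without that array and 0.491 with it. A called change at 7 d and an uncalled one at 2 d is thus not shown to differ for any of these genes.

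**Figure D4:**
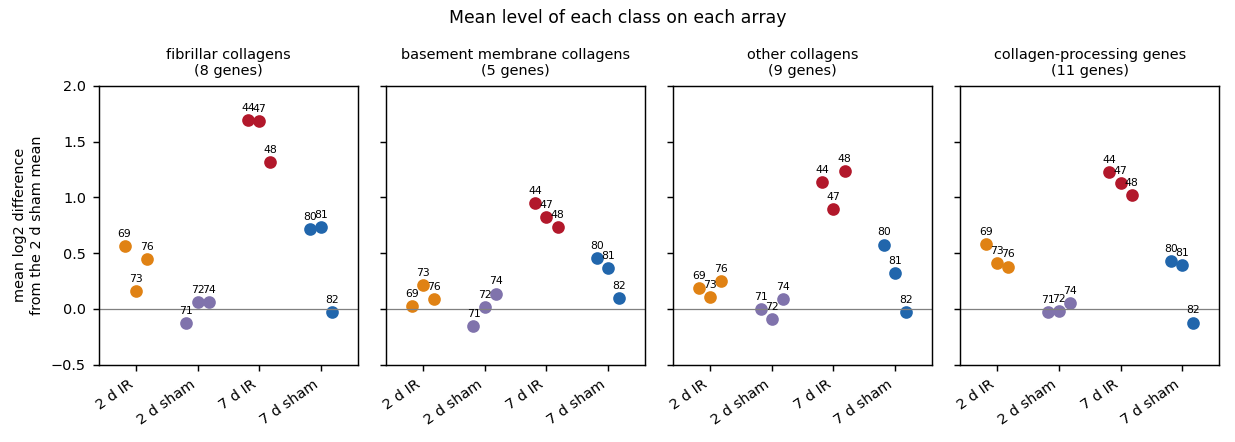
Mean log2 signal of the tested genes of each class on each array, as the difference from the mean of 2 d sham hearts; numbers are replicates. For fibrillar collagens the 7 d IR arrays are at 1.69, 1.68 and 1.32 and the 7 d sham arrays at 0.71, 0.74 and -0.02. These include Col5a3, which passed the filter mainly through its 7 d IR arrays. Without it the fibrillar values are 1.57, 1.53 and 1.24 in 7 d IR and 0.79, 0.88 and 0.015 in 7 d sham hearts. For collagen-processing genes the 7 d IR arrays are at 1.23, 1.13 and 1.02 and the 7 d sham arrays at 0.43, 0.40 and -0.12.

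**Figure D5:**
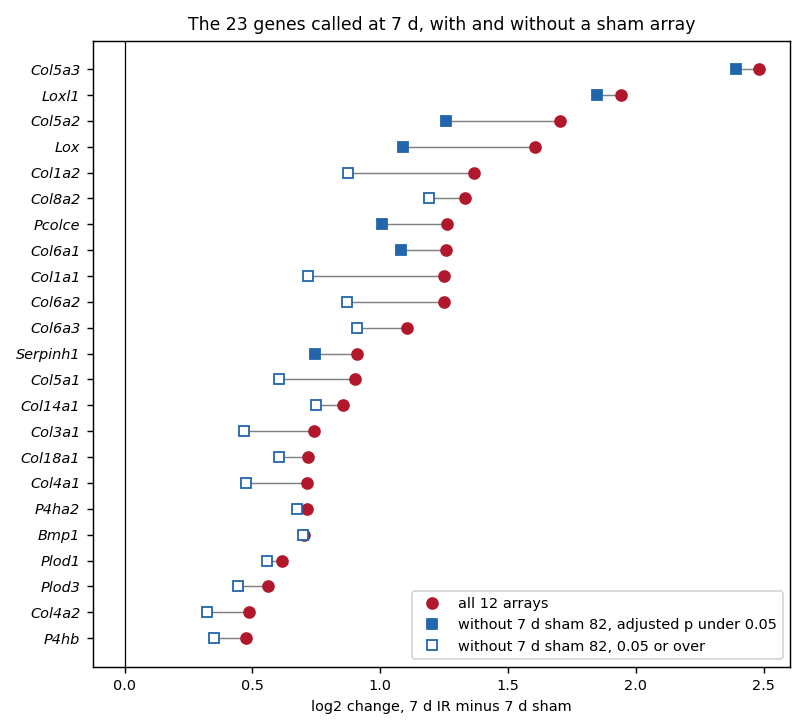
Log2 change of 7 d IR against 7 d sham hearts with all arrays and without 7 d sham replicate 82, for the 23 genes that passed with all arrays; open squares did not pass without it. Loxl1 is at 1.94 with all arrays and 1.85 without replicate 82, and Col1a1 at 1.25 and 0.72.

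Genes that act with collagens were read from further lists. Beside their counts, 6.22% of all probe sets were called higher at 7 d and 1.88% at 2 d. At 2 d 21.5% of all probe sets were at an unadjusted p under 0.05 (limma). Of 17 genes of procollagen folding and secretion, 6 were higher at 7 d and none lower: Sparc, a collagen-binding matrix protein, by 1.07 (SE 0.16, adjusted p = 0.00323), the prolyl isomerase Fkbp10 by 0.88 (adjusted p = 0.0477) and the prolyl isomerase Ppib by 0.77 (adjusted p = 0.0183) had the largest changes, with a list median of 0.275. At 2 d none of the 17 passed (limma; 7 at an unadjusted p under 0.05), and Pdia4, a disulphide isomerase, had 0.85 at 2 d (adjusted p = 0.0599) and 0.61 at 7 d (adjusted p = 0.0966).

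Of 8 small leucine-rich proteoglycans, which bind collagen fibrils and regulate their width, 2 were higher at 7 d: Prelp by 0.88 (SE 0.15, adjusted p = 0.00725) and Lum, lumican, by 0.73 (adjusted p = 0.0244). Lum had 0.47 at 2 d (adjusted p = 0.165), and Aspn had 0.78 at 7 d (adjusted p = 0.093). Of 9 tested genes of collagen breakdown, 5 were higher at 7 d and 2 at 2 d. For each of these lists the share of all probe sets called higher is 6.22% at 7 d and 1.88% at 2 d. The list holds inhibitors as well, and 1 of the 5, Timp2, is a metalloproteinase inhibitor, with 0.78 at 7 d (adjusted p = 0.0105). The others included Ctsk, cathepsin K, by 1.42 (SE 0.25, adjusted p = 0.00726), Mmp14, a membrane collagenase, by 1.39 (adjusted p = 0.0131), and Fap, a protease of activated fibroblasts, by 1.39 (adjusted p = 0.00286). At 2 d they were Mmp14 by 1.24 (adjusted p = 0.0473) and the cathepsin Ctsl by 0.71 (adjusted p = 0.0431). Leaving out 2 d IR replicate 69, or 2 d sham replicate 71 or 72, left 0.019% of all probe sets called at 2 d, against 2.47%. In each of these fits 1 probe set was higher and 1 lower. Timp1, a metalloproteinase inhibitor, had 1.32 at 2 d (adjusted p = 0.128) and 0.74 at 7 d (adjusted p = 0.33). In the list of 6 collagen receptors, the 1 gene higher at 7 d was Cd47, which binds thrombospondin, by 0.49 (adjusted p = 0.0211). Another probe set of Cd47 gave 0.43 at 7 d (adjusted p = 0.0995). Cd47 had 0.41 at 2 d (adjusted p = 0.0764), while the collagen-binding integrin chain Itga1 had -0.69 (adjusted p = 0.209). Without 7 d sham replicate 82, Sparc remained called at 7 d among the folding genes (1 of 17), Prelp among the proteoglycans (1 of 8), Mmp2, Mmp14, Ctsk and Fap among the breakdown genes (4 of 9), and none of the 6 receptors (1 at an unadjusted p under 0.05) or of the 11 basement membrane partners (4 unadjusted). In that fit 1.66% of all probe sets were called at 7 d. At 2 d none of the 8 proteoglycans (limma; 2 at an unadjusted p under 0.05) or of the 6 receptors (1 unadjusted) passed. Median changes of the lists at 7 d were 0.407 for proteoglycans, 0.784 for breakdown, 0.053 for receptors and 0.299 for basement membrane partners, against 0.007 over all probe sets.

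Markers of several cell types moved with the collagens, and their part in the results was not tested. Over all probe sets, 6.22% were called higher and 5.84% lower at 7 d, and 1.88% and 0.589% at 2 d. Of 13 fibroblast markers 6 were higher at 7 d, with summed signals of 162000 to 192000 in 7 d IR hearts and 109500 to 129400 in 7 d sham hearts. Of 7 myofibroblast markers 4 were higher, with sums of 53970 to 70950 in 7 d IR hearts, and 14790 to 38020 in 7 d sham hearts. Of 14 macrophage and monocyte markers 10 were higher at 7 d and 7 at 2 d, with 7 d sums of 108300 to 138600 in IR hearts and 60400 to 85290 in sham hearts. None of these sums overlapped between 7 d IR and 7 d sham hearts. Of 14 cardiomyocyte markers 8 were lower at 7 d, with sums of 507300 to 566400 in 7 d IR hearts and 677400 to 782900 in 7 d sham hearts. No marker was at 0, and the lists share Ddr2, Dcn and Fap with those above. At 2 d, 1 of 13 fibroblast, 2 of 7 myofibroblast and 1 of 14 cardiomyocyte markers (lower) passed. Few 2 d calls of any gene remained without 2 d IR replicate 69, or without 2 d sham replicate 71 or 72 (0.019% of all probe sets). Without 7 d sham replicate 82, 2 fibroblast, 2 myofibroblast, 0 macrophage and monocyte (10 of 14 at an unadjusted p under 0.05) and 1 cardiomyocyte marker passed at 7 d (limma), with list medians of 0.58, 0.842, 0.703 and -0.347, against 0.735, 1.048, 0.911 and -0.399 with all arrays. In that fit 1.66% of all probe sets were called at 7 d. Endothelial markers (1 of 10 higher at 7 d) and smooth muscle and pericyte markers (1 of 10) had counts near the share of all probe sets (6.22%). Summed endothelial signals at 7 d were 32200 to 32800 in IR against 27330 to 31080 in sham hearts. At 7 d, 1 of 3 neutrophil markers (S100a8) and 1 of 2 lymphocyte markers (Cd4) were higher, and 1 of 5 atrium markers (Myl7) was lower. Neither the 2 tested mesothelium and epicardium markers nor the 1 tested cartilage and bone marker was called at 7 d (limma; 0 at an unadjusted p under 0.05).

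In 7 d sham replicate 82 the mean log2 level of the fibroblast markers was -0.08 relative to the 2 d sham mean, against 0.43 in replicates 80 and 81, and that of the myofibroblast markers was -0.08, against 1.04 and 0.50. Other lists were low on this array too: macrophage and monocyte markers at -0.085, against 0.508 and 0.473, and collagen breakdown at -0.022, against 0.806 and 0.676. Neutrophil markers were at 0.342, against 1.099 and 2.407. Endothelial markers (0.08, against -0.038 and 0.122) and cardiomyocyte markers (0.017, against -0.175 and -0.186) were not lowest there. The RNA was also read at both ends of control transcripts. For Actb, the 3' minus 5' difference of log2 signal was 0.18 ± 0.06 in 7 d IR hearts and 0.58 ± 0.23 in 7 d sham hearts (SD, n = 3 each), with no overlap. For Gapdh it was 0.32 ± 0.05 in 7 d IR hearts and 0.39 ± 0.07 in 7 d sham hearts, and for hexokinase 0.82 ± 0.16 and 0.95 ± 0.24. Both of these pairs overlapped. In 2 d IR and 2 d sham hearts the means were 0.24 and 0.20 for Actb, 0.32 and 0.27 for Gapdh, and 1.34 and 1.26 for hexokinase. The part of these differences in the results was not tested. The replicate numbers of the 7 d IR hearts (44, 47 and 48) are far below those of all other hearts (69 to 82), and the labels read here do not say what they number, so that a batch of this kind and 7 d IR cannot be told apart.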

How the data were processed

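The array was a rat genome array, measured in 12 hearts, with 1 array per rat and 3 rats in each of the 4 groups. The authors deposited linear MAS5 intensity values, 1 per probe set, as the submitters' processing notes name the tool; neither the version nor detection calls are stated there. The trimmed mean of each array (2% left out at each end) was 1500.4 to 1500.5, so the arrays had been scaled to a common level. Values were turned into log2(signal + 195), with the pseudocount taken as the median 20th percentile of the arrays, so that folds of dim genes come out too small. The array holds 15923 probe sets including 57 controls, which were dropped, and the 10527 probe sets above their array's 40th percentile on at least 3 arrays were tested. Symbols came from GEO's platform annotation: 12783 probe sets had 1 symbol, 312 had several and 2822 none, and the symbols of 12748 probe sets matched the RefSeq table of GRCr8.

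Groups were fitted in limma 3.58.1 under R 4.3.3 (lmFit, contrasts.fit, eBayes with trend, all 12 arrays, two-sided). Benjamini-Hochberg correction gave each adjusted p, and a change with a value under 0.05 was called. The main limma fit was tested on simulated data, in the comparison of 7 d IR against 7 d sham hearts only. The 5 comparisons were 2 d and 7 d IR against sham, the difference of these effects, and 7 d against 2 d in sham and in IR hearts. Python 3.11.15 with pandas 2.3.3, numpy 2.4.6 and matplotlib 3.10.9 made tables and plots. Named genes followed a rule: every member with a call or a change of at least 1 in an IR comparison by array, other members by range, and up to 3 called genes per further list with the largest uncalled one. The members, lists and tests were chosen with earlier results of these data known. No 2 arrays held identical values, and the number of arrays limits the precision. Alternatives were other pseudocounts (50 and 500), filters, normalizations, probe set rules, controls, no trend, array weights, and leaving out each array. Protein sequences were not analysed here.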

Additional observations from a re-analysis of the deposited data

Results flagged for a closer look

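A probe set of Bmp1 that was too dim in most arrays to be tested had signals of 797, 1681 and 442.6 in 7 d IR hearts, with a mean of 973.4, against at most 191.7 and a mean of 97.4 over the sham hearts of both days. Only some of its 7 d IR arrays lay above the array's 40th percentile, so it entered no test. It was singled out because its signal in 7 d IR hearts exceeded the highest sham array; the tested Bmp1 probe set rose as well.

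A further probe set of Col6a2, also untested, had a mean of 519.0 in 7 d IR hearts, with arrays from 431.7 to 574.9, against at most 347.9 and a mean of 226.3 over the sham hearts of both days. No test was run on either probe set. The difference of the IR effects between the days was called for no member (limma, 12 of 33 at an unadjusted p under 0.05), where 0.0095% of all probe sets were called.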

How the results depend on the processing

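No paired analysis was possible because the groups share no replicate numbers. Over 2764 values of the 111 results and their alternatives, 2463 kept their direction and side of the threshold, 208 lost a call, 69 gained one and 24 reversed. Values uncalled before and after count as kept. An array outside a comparison can alter only its estimate of spread, and choosing probe sets by mean log2 signal reused the same fit. Without 7 d sham replicate 82, 22 of the 7 d values lost a call and 22 were kept. At 2 d, where no member was called, 1 was called under the filter on the mean signal or the mean of a gene's probe sets. In those fits 3.17% and 2.57% of all probe sets were called. Array weights gave 2 members (3.69% of all probe sets) and the compared arrays alone 4 (2.85%). With 1 array left out, 0 to 6 members were called, and 0.019% to 4.89% of all probe sets. At 7 d, leaving out 1 array gave 7 to 23 members, where 1.66% to 13.9% of all probe sets passed, and leaving out 2 d IR replicate 69 and 7 d sham replicate 82 together gave 14, where 5.14% did. For the difference of effects, array weights gave 1 (0.0285% of all probe sets) and leaving out an array 0 to 1 (0 to 0.057%). It has no value from the compared arrays alone. In 7 d against 2 d sham hearts, array weights gave 2 (0.237% of all probe sets) and the compared arrays alone 1 (0.076%). Both arrays left out gave 10 (0.788%), and leaving out an array 0 to 10 (0.0095% to 0.722%). For 7 d against 2 d IR hearts, leaving out an array gave 10 to 19, where 1.82% to 4.17% of all probe sets were called. The cause of these changes was not tested.

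The reversed values were log2 changes at 2 d. With 7 d sham hearts as control they were -0.051 for Bmp1, -0.85 for Col14a1, -0.10 for Col18a1, -0.63 for Col1a1, -0.27 for Col1a2, -0.42 for Col3a1, -0.10 for Col4a1, -0.12 for Col4a2, -0.37 for Col6a1, -0.48 for Col6a2, -0.011 for Pcolce, -0.45 for Lum, -0.40 for Mmp14 and -0.10 for Lamb1. With sham hearts of both days they were -0.34 for Col14a1, -0.048 for Col3a1, and -0.11 for Col6a1 and Col6a2. With the mean of a gene's probe sets they were -0.005 for Col14a1, and -0.07 for P4ha2 and Serpinh1. Over the fits that leave out 1 array, Col5a3 ran from -0.098 (without 2 d IR replicate 69, also with 7 d sham replicate 82 left out) to 0.602, and Loxl1 from -0.003 (without 2 d IR replicate 73) to 0.448.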

Other observations

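Several members had further probe sets that passed the filter, and most moved the same way at 7 d. The other probe set of Col1a1 gave a log2 change of 1.46 in 7 d IR against 7 d sham hearts (limma, adjusted p = 0.0196), that of Col1a2 gave 1.54 (adjusted p = 0.0097), that of Col5a1 gave 1.60 (adjusted p = 0.00816) and that of Col5a2 gave 1.63 (adjusted p = 0.00548). Those of Lox (1.02, adjusted p = 0.0887), Col18a1 (0.75, adjusted p = 0.0762), Col4a1 (0.67, adjusted p = 0.077) and Col14a1 (0.45, adjusted p = 0.0837) did not pass. Changes of further probe sets are given with all arrays only. In those of Col1a1, Col1a2, Col5a1 and Col5a2, 7 d sham replicate 82 was again the lowest 7 d sham array, at 3866, 4157, 411 and 1816. Replicates 80 and 81 were at 12050.5 and 13398 for Col1a1, 11969 and 10674 for Col1a2, 1173 and 1266 for Col5a1, and 5487 and 4241 for Col5a2. The other probe set of P4ha2 had -0.27 at 7 d (adjusted p = 0.388) and -0.48 at 2 d (adjusted p = 0.157), opposite in sign to the probe set reported for this gene on both days. At 2 d, the other probe set of Col1a1 gave 1.09 (adjusted p = 0.101) and that of Lox gave 1.07 (adjusted p = 0.117), and neither passed. Further probe sets that were not tested ran over the 12 arrays from 47.9 to 712.5 for Col12a1, 15.6 to 248.6 for Serpinh1, 7.4 to 133.0 for Col11a1 and 8.3 to 121.4 for Col2a1.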
